A study of Mus musculus with 3 samples.

Results

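The genes described here carry out microRNA silencing and the mRNA decay that follows it. They were named as 10 symbols, Tnrc6a, Tnrc6b, Tnrc6c, Cnot1, Cnot7, Ddx6, Dcp2, Xrn1, Pan3 and Edc4, and a gene was read where a probe set of the array was annotated with that symbol and no other. This held for 8 of the 10, out of 22087 genes read in the same way. The probe sets annotated to Tnrc6b and Cnot1 each carried a further symbol, so these genes were not analysed here. Each of the 8 had 1 such probe set, so no choice between probe sets was needed. For Edc4 a further probe set that it shares with a neighbouring symbol was not used.

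Gene expression was measured on Affymetrix arrays in total RNA of 3 samples, numbered 1 to 3, all of the genotype Dicer1 +/- and all stroma sorted from dissociated mouse tumours. The sort kept live cells that lacked PECAM1, an endothelial surface protein, and tdTomato, the fluorescent protein that marked the tumour cells. The series title sets ASD+/- against ASD+/+ stroma, but Dicer1 +/+ stroma was not analysed here, so the data describe 1 group and no effect of genotype can be read from them. The sources used here do not give the meaning of ASD, the promoter behind tdTomato or the age of the mice. The labels do not say that the samples came from separate mice. Sample 1 expressed Xist, the non-coding RNA of X inactivation, at 9.78 (log2 intensity) against 3.43 and 3.49 in samples 2 and 3, while Y-linked Eif2s3y read 3.86, 8.51 and 8.71 and Y-linked Kdm5d 3.67, 7.03 and 7.5 in samples 1 to 3. By these genes sample 1 was female and samples 2 and 3 male, so sample 1 came from another mouse than the other two, and every SD and range below spans both sexes. For samples 2 and 3 a purely technical spread cannot be told apart from one between mice.

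A microRNA guides an Argonaute protein to a target mRNA, and Argonaute binds a protein of the GW182 family, which in mammals is encoded by Tnrc6a, Tnrc6b and Tnrc6c. GW182 proteins recruit the PAN2-PAN3 and CCR4-NOT complexes, which shorten the poly(A) tail. CCR4-NOT also binds the helicase DDX6, a repressor of translation and an activator of decapping. DCP2 then removes the cap on a scaffold provided by EDC4, and XRN1 degrades the body of the mRNA from its exposed 5′ end. These factors are made in most cell types, and they act on many mRNAs besides microRNA targets.

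The bases upstream of the annotated start are shown for Tnrc6a and Tnrc6c, a pair of paralogues with different base composition. They are also shown for Pan3 and Xrn1, which like Tnrc6a were lowest in sample 2. The sequences are from RefSeq on GRCm38.p6, each 250 bases ending just before the start, printed 5′ to 3′ with every CpG in capitals. 
Tnrc6a, chr7:123123635-123123884, plus strand: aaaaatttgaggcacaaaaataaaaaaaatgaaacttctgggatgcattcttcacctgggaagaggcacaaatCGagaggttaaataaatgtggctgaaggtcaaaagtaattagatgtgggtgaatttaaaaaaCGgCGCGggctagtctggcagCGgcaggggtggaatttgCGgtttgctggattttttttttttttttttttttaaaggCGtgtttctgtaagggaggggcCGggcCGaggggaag
Tnrc6c, chr11:117654039-117654288, plus strand: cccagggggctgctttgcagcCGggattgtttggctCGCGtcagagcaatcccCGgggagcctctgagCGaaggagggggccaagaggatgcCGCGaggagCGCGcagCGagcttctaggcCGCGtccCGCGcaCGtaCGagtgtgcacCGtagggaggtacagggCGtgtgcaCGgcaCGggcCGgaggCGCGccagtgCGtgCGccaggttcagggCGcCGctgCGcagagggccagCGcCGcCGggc
Pan3, chr5:147429906-147430155, plus strand: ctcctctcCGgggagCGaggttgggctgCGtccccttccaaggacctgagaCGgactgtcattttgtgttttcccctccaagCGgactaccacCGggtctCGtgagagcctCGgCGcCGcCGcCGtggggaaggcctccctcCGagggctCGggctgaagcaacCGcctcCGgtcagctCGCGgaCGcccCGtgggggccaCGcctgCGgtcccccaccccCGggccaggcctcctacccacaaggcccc
Xrn1, chr9:95954510-95954759, plus strand: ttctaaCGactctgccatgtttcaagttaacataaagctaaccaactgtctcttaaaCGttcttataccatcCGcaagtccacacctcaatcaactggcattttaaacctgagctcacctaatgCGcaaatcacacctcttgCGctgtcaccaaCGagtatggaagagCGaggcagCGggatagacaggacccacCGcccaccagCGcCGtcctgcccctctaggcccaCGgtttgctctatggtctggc

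The Tnrc6c window held 31 CpGs and was 72.4% G or C, while the Tnrc6a window held 9 CpGs and was 42.4% G or C. Pan3 resembled Tnrc6c, with 23 CpGs and 71.2%, and Xrn1 had 12 CpGs and 51.6%. Over all 32851 windows of the same length the medians were 6 CpGs and 52.4%. On either strand, GGGCGG occurred once in the Xrn1 window and in none of the other printed windows, against 32.7% of all windows. CCAAT, found in 33.8% of all windows, and TATAAA, found in 12.4%, occurred in none of these 4. The window of Edc4, not printed, held 1 CCAAT and 5 CpGs and was 50.8% G or C. No window was read for Cnot7, Ddx6 or Dcp2, so these windows do not cover the whole set. These matches describe letters in a window and nothing of binding.

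The signal of each array was set against a background reference, below which lie 95% of the 1438 probe sets of chemosensory receptors (olfactory, vomeronasal and taste). It stood at 5.16, 5.11 and 5.20 (log2 intensity) in samples 1 to 3. A gene above it on all 3 arrays was called detected. Markers of fibroblasts (8 of 8), pericytes and smooth muscle (7 of 7), macrophages (7 of 7), neutrophils (7 of 7) and T cells (7 of 7) were all detected. So were 4 of 5 B cell, 3 of 4 epithelial and 6 of 7 muscle markers, against 60.5% of 20658 named genes. Of 7 endothelial markers 5 were detected, among them Pecam1 at 8.02, 7.20 and 8.25 in samples 1 to 3, although the sort was meant to leave PECAM1-positive cells out. Which cells gave the Pecam1 signal was not tested. Kdr, Tek and Vwf of the endothelial list lay close to the reference, 0.096 above it in sample 2, 0.15 in sample 1 and 0.16 in sample 2. Cd3g of the T cell list lay closer still, 0.030 above it in sample 2. In such mixed cells, fewer cells of a type and less RNA per cell cannot be told apart.

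All 8 silencing and decay genes were detected, against a background of 60.5% of 20658 named genes. Edc4 lay at least 1.38 above the reference of each array. Probes differ in brightness, so these values do not order the genes by expression.

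**Figure D1:**
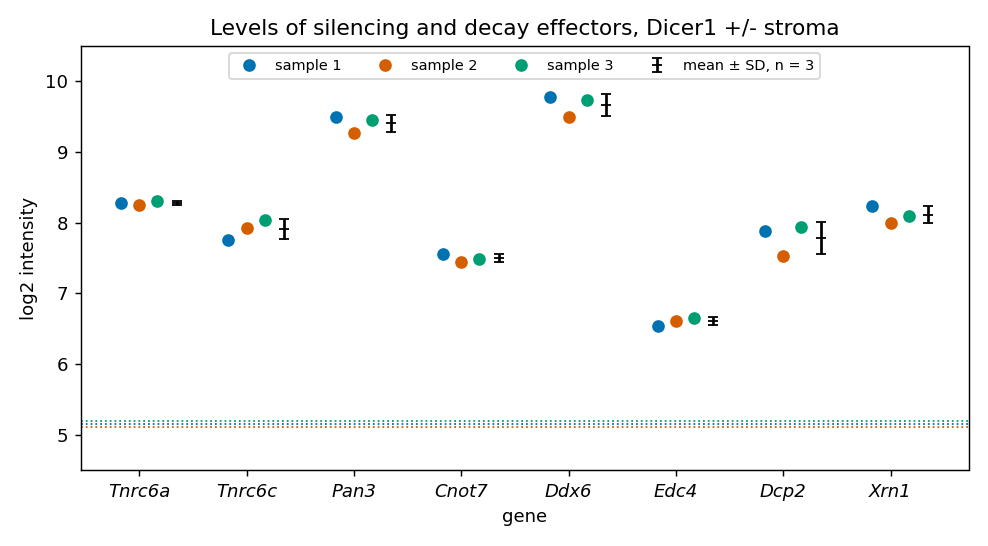
Log2 intensity (vertical axis) of each gene (horizontal axis) in samples 1, 2 and 3, with the mean ± SD (n = 3) in black; dotted lines mark the background reference of each array. All 8 genes lay above the reference on every array; heights of different genes are not comparable, because probes differ in brightness.

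Tnrc6a and Tnrc6c encode the GW182 proteins that join Argonaute to the deadenylases. Tnrc6a (probe set 17482828) was at 8.28, 8.25 and 8.31 in samples 1 to 3, a mean of 8.28 ± 0.029 (SD, n = 3). Its values were nearly level, and its range of 0.057 was larger than that of 6.67% of the 12508 detected genes. Tnrc6c (probe set 17258789) was at 7.76, 7.93 and 8.04, a mean of 7.91 ± 0.14 (SD, n = 3). It was lowest in sample 1 and highest in sample 3, a 1.21-fold range, larger than that of 45.8% of detected genes. Its SD was larger than that of Tnrc6a, a difference that could not be tested with 1 array per sample.

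The deadenylases were represented by Pan3, the subunit that brings the PAN2 nuclease to its target, and Cnot7, a catalytic subunit of CCR4-NOT. Pan3 (probe set 17444855) was at 9.49, 9.27 and 9.46, a mean of 9.40 ± 0.12 (SD, n = 3). Samples 1 and 3 were 0.030 apart, and sample 2 lay 0.19 below the lower of them. Cnot7 (probe set 17508868) was at 7.56, 7.45 and 7.49, a mean of 7.5 ± 0.057 (SD, n = 3). It too was lowest in sample 2, with a range of 0.11, larger than that of 15.2% of detected genes, while the range of Pan3 was 0.22.

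Ddx6, the helicase that links deadenylation to decapping, was at 9.78, 9.49 and 9.73 (probe set 17516633), a mean of 9.67 ± 0.15 (SD, n = 3). As for Pan3, samples 1 and 3 were close together and sample 2 was low, by 0.24 to 0.29 on the log2 scale. Ddx6 and Pan3 were the pair of genes among the 8 with the most alike deviations from their own means, at a Euclidean distance of 0.046 over 3 arrays.

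Decapping was represented by Dcp2, the catalytic enzyme, and Edc4, its scaffold. Dcp2 (probe set 17350281) was at 7.89, 7.53 and 7.95, a mean of 7.79 ± 0.23 (SD, n = 3). It had the largest range of the 8 genes, 0.42 on the log2 scale or 1.34-fold, larger than that of 66.5% of detected genes. Sample 2 was 0.36 below sample 1 and 0.42 below sample 3, which were 0.061 apart. Edc4 (probe set 17504964) was at 6.55, 6.62 and 6.65, a mean of 6.60 ± 0.055 (SD, n = 3). Its order, lowest in sample 1 and highest in sample 3, was that of Tnrc6c, with a range of 0.11.

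Xrn1, the exonuclease that acts after decapping, was at 8.24, 8.0 and 8.09 (probe set 17520492), a mean of 8.11 ± 0.12 (SD, n = 3). It was highest in sample 1 and lowest in sample 2, a range of 0.24 that was larger than that of 39.0% of detected genes.

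**Figure D2:**
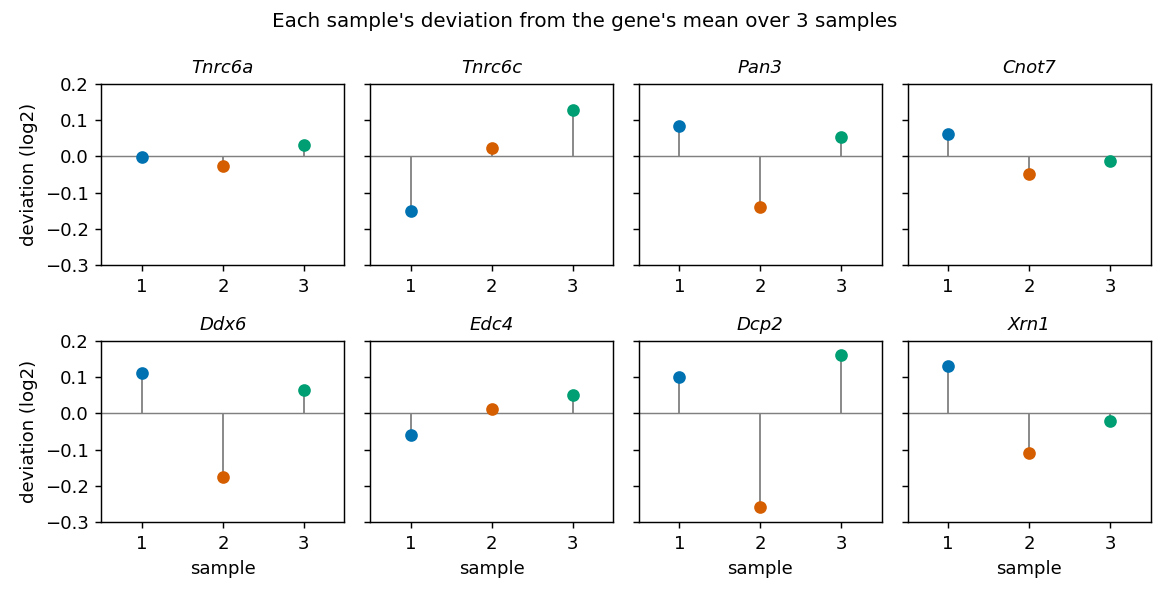
Deviation of each sample from the gene's own mean over the 3 samples (vertical axis, log2) for samples 1 to 3 (horizontal axis), 1 panel per gene. Sample 2 is the lowest point in 6 of 8 panels, by the most in Dcp2 (-0.26), and sample 1 is the lowest in Tnrc6c and Edc4.

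Differences between samples were small for the 8 genes. Their median range was 0.23 on the log2 scale, against 0.30 for all detected genes. Dcp2 alone of the 8 had a range above that median, against 50.0% of detected genes by construction. None exceeded 0.5, against 25.3% of detected genes, and none exceeded 1, a 2-fold range, against 4.86%. Without sample 1 or sample 3, 3 or 5 of the 8 lay above the corresponding median of all detected genes, which fell to 0.18 and 0.16. Without sample 2 the median range of the 8 genes was 0.068, against 0.19 for all detected genes. No gene of the 8 had equal values on a pair of arrays, which 10.8% of detected genes had.

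**Figure D3:**
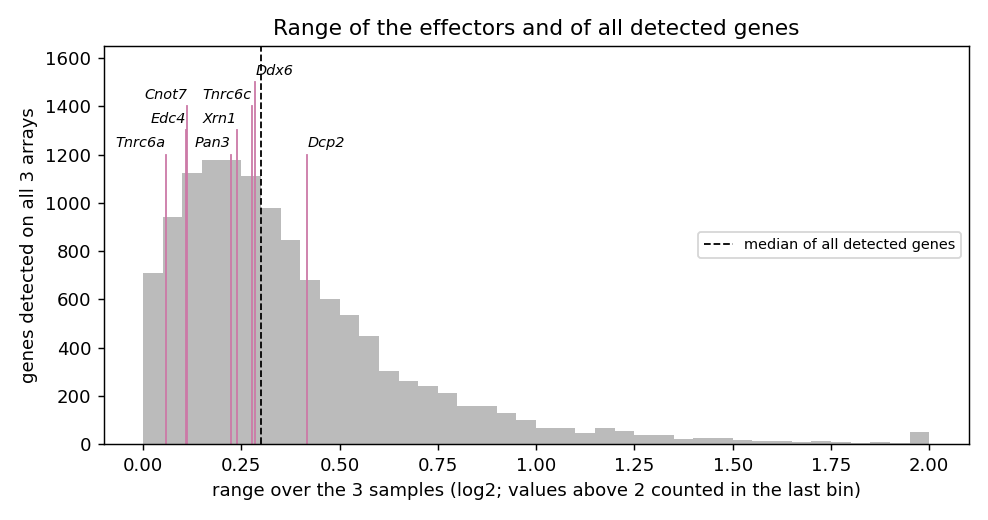
Number of detected genes (vertical axis) by range over the 3 samples (horizontal axis, log2), with the 8 genes as vertical lines whose height has no meaning and the median of all detected genes, 0.30, dashed. Dcp2 at 0.42 lies to the right of the median and the other 7 genes lie to its left, from 0.057 to 0.29.

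Most of the 8 genes were lowest in sample 2. All 8 were lower in sample 2 than in sample 3, against 47.9% of detected genes, by 0.037 (Cnot7) to 0.42 (Dcp2), with a median difference of -0.098 for sample 2 minus sample 3. Of the 8, 6 were lower in sample 2 than in sample 1, against 44.9% of detected genes, and Tnrc6c and Edc4 were higher there by 0.17 and 0.070. Accordingly 6 of 8 had their lowest value in sample 2, against 29.6% of detected genes, and none its highest, against 32.1%. The highest value fell in sample 1 for Cnot7, Ddx6, Xrn1 and Pan3 (4 of 8, against 29.2%) and in sample 3 for the other 4 (against 32.8%), and none had its lowest value in sample 3, against 33.5%. Tnrc6c and Edc4 were lowest in sample 1 (2 of 8, against 30.7%) and highest in sample 3, an order that 16.4% of detected genes had. The median deviation of the 8 genes was 0.073, -0.080 and 0.052 in samples 1 to 3, a span of 0.15 that was 0.0015 without sample 2. The low values of sample 2 were noticed in the data and rest on 1 array, so they have no test.

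The genes whose pattern was most like those of the 3 members with the largest ranges came from 11843 detected genes, by Euclidean distance between deviations over 3 arrays. For Dcp2 these were Dck, a deoxynucleoside kinase (8.34, 7.99 and 8.41 in samples 1 to 3, distance 0.0061), Snord55, a small nucleolar RNA (distance 0.0089), and Tcf19 (distance 0.014). For Ddx6 they were Cstf2, a factor of mRNA 3′ end cleavage (6.67, 6.38 and 6.62, distance 0.0029), Adnp (distance 0.0067) and Madd (distance 0.011). For Tnrc6c they were Klf13, a transcription factor (7.23, 7.40 and 7.51, distance 0.0031), Otud3, a deubiquitinase (distance 0.0035), and Ccdc163 (distance 0.0044). Many other genes were nearly as close: 230 genes (1.94%) lay within 0.1 of Dcp2, 555 (4.69%) within 0.1 of Ddx6 and 712 (6.01%) within 0.1 of Tnrc6c.

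Other genes of mRNA silencing and decay gave the context, from a list of 87 symbols and 78 of them had a probe set of their own. Of these 76 were detected on all 3 arrays, against the 60.5% of named genes given above. The exceptions were Ago4, an Argonaute, at 4.90, 4.80 and 5.18 and thus below the reference on every array, and Paip2b, an inhibitor of poly(A)-binding protein, at 5.52, 5.39 and 5.0, below it in sample 3 alone. The median range of the 76 detected genes was 0.23, as for the 8 genes. Of these 76, 6 had a range above 0.5, against 25.3% of all detected genes, and none had a range above 1, against 4.86%.

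Of the Argonautes, the proteins to which GW182 binds, Ago1 was at 7.05, 6.60 and 6.78, Ago2 at 8.31, 8.31 and 8.63 and Ago3 at 6.74, 7.03 and 6.57. Their SDs were 0.22, 0.18 and 0.23 (n = 3 each), and Ago2 had equal values in samples 1 and 2. No order of samples was shared, since Ago1 was lowest in sample 2 and Ago3 highest there. Ago1, Ago2 and Ago3 each had a range above the 0.30 of the median detected gene, larger than those of both GW182 genes read.

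The 15 deadenylation genes measured were all detected, against 60.5% of named genes. In sample 2, 9 were lowest and none highest, against 29.6% and 32.1% of detected genes. Their median deviations were 0.028, -0.12 and 0.059 in samples 1 to 3. Among them Cnot6l, a catalytic subunit of CCR4-NOT, was at 9.26, 8.76 and 9.10, low in sample 2 as Ddx6 and Pan3 were. Tob1 and Tob2, which recruit CCR4-NOT to mRNAs, were highest in sample 3, Tob1 at 8.01, 8.22 and 8.53 and Tob2, also lowest in sample 2, at 7.78, 7.67 and 8.28. Noct, a relative of the CCR4 nucleases that was first described as a deadenylase, was at 6.52, 6.59 and 6.98.

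Of 19 decapping and cap-bound repressor genes 10 were lowest in sample 2 and 4 highest, with median deviations of 0.038, -0.059 and -0.0045. The largest range here was that of Lsm3, a subunit of the LSM ring that binds shortened tails, at 8.88, 8.26 and 8.40. Of 15 exonuclease and exosome genes 10 were highest in sample 1 (against 29.2% of detected genes), 4 lowest in sample 2 (against 29.6%) and 7 lowest in sample 3 (against 33.5%), and the groups were not tested against each other. Of 7 nonsense-mediated decay genes 3 were lowest in sample 2, as were 2 of 5 genes of poly(A)-binding proteins and their partners. Of 13 genes of RNA-binding proteins that recruit decay factors, 7 were lowest in sample 2, while Samd4, a translational repressor, was highest there, at 6.16, 6.74 and 6.48, and Zfp36l2, which binds AU-rich elements, was at 10.28, 10.30 and 10.79. Over the 76 detected genes of the list, 36 were lowest and 11 highest in sample 2, against the 29.6% and 32.1% of all detected genes.

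**Figure D4:**
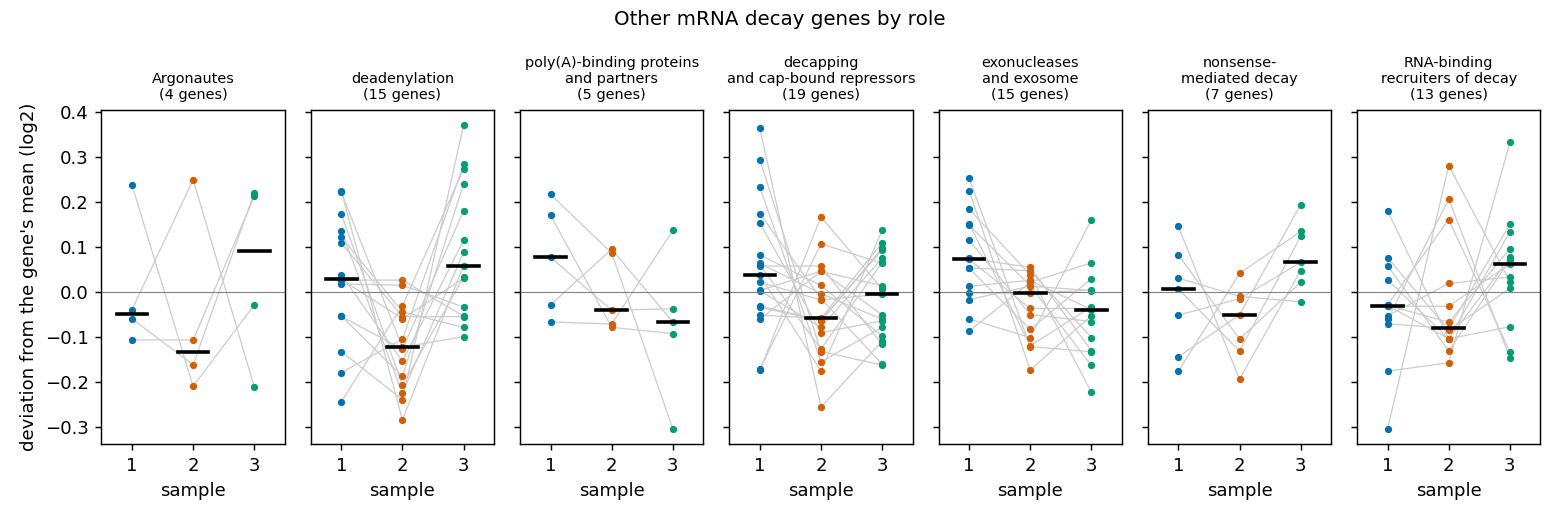
Deviation from the gene's own mean (vertical axis, log2) in samples 1 to 3 (horizontal axis) for the 78 other decay genes by role; thin lines join the values of a gene and black bars are medians. The median of deadenylation genes is -0.12 in sample 2, and that of exonuclease and exosome genes is 0.073 in sample 1 and -0.039 in sample 3.

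By median range, each list of cell type markers differed between the same samples by more than the silencing and decay genes did. These medians ran from 0.42 (epithelial) to 2.11 (T cell), against 0.23 for the 8 genes. Single markers ranged over less than 0.23, namely S100a8 (0.039), Krt8 (0.060), Cd68 (0.086), S100a9 (0.089) and Myod1 (0.12). S100a8 and S100a9 read 12.25 to 12.47, on arrays whose highest values were 13.06 to 13.18. The other neutrophil markers ranged over 0.95 to 1.48. In sample 2 all 8 fibroblast and all 7 pericyte and smooth muscle markers were highest, with median deviations of 0.41 and 0.59. So were 5 of 7 macrophage markers, against 32.1% of detected genes. All 7 T cell markers were lowest in sample 2, with a median deviation of -0.83. Also lowest there were 5 of 7 endothelial, 6 of 7 muscle, 3 of 4 epithelial and 3 of 5 B cell markers, against 29.6% of detected genes. The log2 of the summed intensity ranged over the samples from 13.20 to 14.14 for fibroblast markers, from 11.36 to 12.59 for pericyte and smooth muscle markers, from 8.95 to 10.91 for T cell markers and from 8.81 to 9.73 for endothelial markers. For the 8 genes it ranged from 11.34 in sample 2 to 11.52 in samples 1 and 3. Intensities on these arrays do not reach 0, and Emcn and Tie1 of the endothelial list, Cr2 of the B cell list, Epcam of the epithelial list and Myh3 of the muscle list were not detected on all arrays. The part of the cell mixture in the lower values of sample 2 was not tested.

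**Figure D5:**
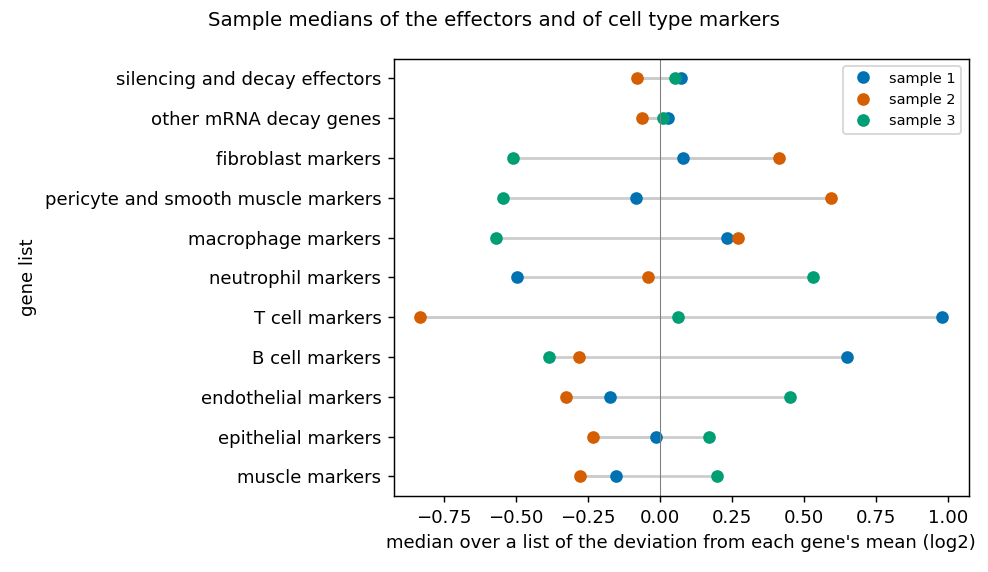
Median over each gene list of the deviation from each gene's own mean (horizontal axis, log2) for samples 1 to 3, by list (vertical axis). The silencing and decay genes span 0.15 and the T cell markers 1.81, and sample 2 is lowest in both. Sample 2 is also lowest for the other mRNA decay genes and the endothelial, epithelial and muscle markers.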

How the data were processed

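Affymetrix arrays of 3 samples of Dicer1 +/- stroma were analysed. The values deposited by the authors are log2 intensities, with 1 per probe set on each array. The log2 scale was read from the values, which ran from 2.00 to 13.18, with array medians of 5.35, 5.34 and 5.36. Partek is named in the submitters' processing notes, while the sources used here do not give the background correction, normalization or probe summarization. These steps set the spread between arrays.

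Of 31873 probe sets, 23094 had 1 gene symbol in GEO's platform annotation, naming 22087 genes, and the brightest probe set stood for a gene. Deviations are from a gene's mean over 3 arrays, and its range is the highest minus the lowest value. With 1 group no comparison was tested, and the number of arrays limits the precision. The genes and lists were chosen with earlier results of these data known. Genes named were all 8 read, the Argonautes, list genes not detected, the 8 detected list genes with the largest ranges, and the 3 nearest patterns for each of 3 genes. Markers were named as list exceptions or where close to the reference. Pecam1, Xist and 2 Y-linked genes were named to describe the samples. Alternatives changed the reference, normalization, probe set summary, filter and samples. Python 3.11.15 and pandas 2.3.3 were used. The calculations were tested on simulated data with shifts larger than any range of the 8 genes. That test checked the code only, not whether differences this small can be found.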

Additional observations from a re-analysis of the deposited data

How the results depend on the processing

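Of 50 values recomputed under alternatives for 7 results, 44 stayed close to the reported one, meaning within 1.5 times for a count and within 0.12, the median SD of the 8 genes, for other values. Some of the 44 could not move. Each of the 8 genes had 1 probe set, so averaging probe sets left their values unchanged. Leaving out sample 1 does not touch the comparison of samples 2 and 3. Leaving out any sample cannot raise a count of ranges above 1 that was 0. A count of all 8 genes detected cannot fall when a sample is left out or the reference drops to the 90th percentile. Centring shifts the values and the reference of an array alike, so it cannot change detection. The limit of 0.12 was also close to the span of 0.15 that it judged. All 8 genes stayed detected with the 99th percentile or the array median as reference, which lay higher than the reference used. Of the 78 other decay genes 76 were detected as reported, 78 with the 90th percentile, 66 with the 99th and 76 with the array median. All 8 were lower in sample 2 than in sample 3 also after quantile normalization and after centring the arrays on their medians, alternatives chosen after seeing the data. With no filter on dim genes, 3 of the 8 genes had a range above the median of all genes, against 1, since that median was then 0.27. Leaving out each sample in turn gave 1 to 5 such genes, a median range of 0.068 to 0.20 and a span of the sample medians of 0.0015 to 0.17, lowest without sample 2 for the range and the span. A range over 2 arrays is smaller than over 3 by construction. No paired analysis was possible because there is 1 group. With 1 array per sample, differences near the spread of these arrays have no error of their own.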
